A study of Mus musculus with 4 samples.

Results

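The genes described here are 38 genes of meiosis and the germline, chosen by symbol from a table of 48795 genes. They cover meiotic recombination, the synaptonemal complex, meiotic cohesin and germ cell factors, and the set was drawn up as genes that are normally near silent in brain. In the control telencephalon a few members were not near silent, among them Psmc3ip, Syce2, Zcwpw1 and Mnd1, whose levels are given below. All 38 symbols were found, each in 1 row. RNA was sequenced from the telencephalon, the embryonic forebrain, of C57BL/6 mouse embryos at embryonic day 14. The 2 control libraries came from embryos with a floxed Ctcf gene (flanked by loxP sites). The 2 Ctcf-null libraries came from embryos with floxed Ctcf and NestinCre, a Cre recombinase driven by Nestin sequences that is active in neural progenitors and their descendants. The labels name no Cre for the controls, so effects of Cre and of the loss of Ctcf cannot be told apart. The libraries form 2 numbered pairs. The labels do not say whether each library is a different embryo, so a p-value here reflects the spread of these samples alone, which may be technical.

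Meiosis gives each gamete a single chromosome set. The SPO11 enzyme cuts DNA at sites that PRDM9 marks, and recombinases such as DMC1, helped by the MND1 and PSMC3IP (HOP2) heterodimer, pair the broken ends with the homologous chromosome. The synaptonemal complex then holds the homologs together while a cohesin with meiosis-specific subunits ties sister chromatids. In somatic cells many of these genes are kept silent by DNA methylation and by repressor complexes that bind E2F and E-box sites in their promoters. CTCF, a DNA-binding protein with zinc fingers, holds the base of chromatin loops together with cohesin, and the comparison asks which germline genes differ in its absence.

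The depth was 25519331 to 43812558 reads per library. The deposited values, called normalized reads below, are reads divided by 1 factor per library, and 1 read was worth 0.707 to 1.25. The Ctcf transcript itself had 436.72 and 1133.21 normalized reads in the 2 controls against 38.89 and 61.96 in the 2 Ctcf-null libraries (limma adjusted p = 3.3e-12), as labelled. Telencephalon markers had reads in every library, with the progenitor genes Fabp7 at 22195.96 to 35904.1 and Pax6 at 2220.94 to 3164.78 normalized reads. Some others reached lower values, such as Hes5 at 88.39 to 2674.18 and Dlx2 at 157.68 to 2241.41. The progenitor markers Fabp7, Lhx2 and Hes5 and 4 of 7 neuron markers were lower in Ctcf-null libraries in limma, and 2 of 7 choroid plexus markers and 1 of 8 microglia markers were higher. In bulk tissue, fewer cells of a type and less RNA per cell cannot be told apart. The part of cell composition in the results below was not tested. The 7 choroid plexus markers summed to 73433.22 and 25179.57 normalized reads in the controls against 96129.05 and 36287.42. Nearly all of each sum was Ttr, at 72063.48 and 23920.03 against 94451.79 and 34807.7. The 8 microglia markers summed to 1252.34 and 3126.97 against 1554.21 and 3749.13. Germ cell markers ranged from near 0 to low levels, apart from Kit and Tfap2c. Dppa3 had 1 to 5 reads and Pou5f1 3 to 5 reads in each library, whereas Dnd1 had 29 to 45, Prdm1 23 to 53, Nanos2 6 to 37, Nanos3 11 to 24 and Prdm14 4 to 26. The spermatid genes Prm1, Prm2, Tnp1, Tnp2 and Akap4 had 0 to 8 reads, Acrv1 1 to 4 and Odf1 1 to 10. Higher counts were found for the spermatid genes Ldhc (4 to 15), Adam2 (4 to 19), Spaca1 (4 to 27), Pgk2 (8 to 36) and Ccna1 (50 to 76). Of 9 primordial germ cell markers 7 were tested and 0 passed in limma (1 at an unadjusted p under 0.05, Tfap2c, which edgeR called lower). Of 12 spermatid markers 5 were tested and 0 passed in limma or edgeR, adjusted or not. The germ cell markers summed to 3209.1 and 2161.35 normalized reads in controls 1 and 2 against 2534.98 and 1686.25. Most of these sums came from Kit and Tfap2c together. Kit, which neural and blood cells express too, was at 2985.86 and 761.73 against 2300.22 and 790.89, and Tfap2c at 104.06 and 1282.06 against 98.99 and 769.02. The spermatid markers summed to 112.97 and 123.82 against 126.59 and 139.69. In limma 1 of 6 endothelium markers was lower and 1 of 8 ciliated cell markers higher, and none of 6 erythroid and 6 mesenchyme markers passed (3 and 0 at an unadjusted p under 0.05).

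The fold changes below are differences of log2(normalized reads + 1) between Ctcf-null and control libraries, averaged over the 2 pairs. They were tested with limma across 22158 genes with the pair as a block, and rose or fell refers to genes with an adjusted p under 0.05 in that fit. In it 3.67% of all tested genes rose and 10.1% fell. Of the 38 genes, 25 had enough reads to be tested. 4 rose (Mnd1, Zcwpw1, Dazl and Dmc1), 0 fell and 21 did not pass, and at an unadjusted p under 0.05 the counts were 6 higher and 2 lower. The median log2 fold change of the 25 genes was 0.06, against -0.07 for all tested genes. Only Dazl cleared the filter on low counts through the Ctcf-null libraries alone, and a gene that enters in this way had to be higher there. The count test edgeR, run on whole reads recovered from the values and also blocked by pair, called 4.80% of all genes higher and 7.13% lower. It called the same 4 of the 25 higher and 1 lower, Rec8. Without the block of pairs none of the 25 passed in limma or edgeR, where 0 of all 22158 genes passed and 170 (limma) and 174 (edgeR) had an unadjusted p under 0.05.

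The promoters of the 4 genes that rose are shown so that the sequences before their starts can be compared. Each is the stretch of up to 250 bases before a RefSeq transcript start (GRCm38.p6), written 5′ to 3′ on the gene's strand and ending before the first annotated exon base. Capitals mark matches on either strand to the E2F core TCCCGC, the E-box CACGTG or the CTCF core, which was read as CCA, 2 bases of any kind, AG, 2 bases of any kind and GGC.
Mnd1: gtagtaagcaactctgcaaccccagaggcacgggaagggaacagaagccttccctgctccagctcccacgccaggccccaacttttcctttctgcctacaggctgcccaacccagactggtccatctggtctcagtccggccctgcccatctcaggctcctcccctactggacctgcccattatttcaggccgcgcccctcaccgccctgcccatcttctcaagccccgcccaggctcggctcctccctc
Zcwpw1: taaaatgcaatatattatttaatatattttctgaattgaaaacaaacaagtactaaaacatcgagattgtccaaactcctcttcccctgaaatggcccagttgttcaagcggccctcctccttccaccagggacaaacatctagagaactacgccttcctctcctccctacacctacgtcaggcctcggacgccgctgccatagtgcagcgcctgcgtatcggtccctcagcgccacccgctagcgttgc
Dmc1: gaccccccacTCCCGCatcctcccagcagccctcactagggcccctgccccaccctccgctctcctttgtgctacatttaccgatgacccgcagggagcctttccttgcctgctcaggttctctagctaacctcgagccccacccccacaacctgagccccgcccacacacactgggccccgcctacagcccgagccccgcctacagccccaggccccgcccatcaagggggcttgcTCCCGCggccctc
Dazl: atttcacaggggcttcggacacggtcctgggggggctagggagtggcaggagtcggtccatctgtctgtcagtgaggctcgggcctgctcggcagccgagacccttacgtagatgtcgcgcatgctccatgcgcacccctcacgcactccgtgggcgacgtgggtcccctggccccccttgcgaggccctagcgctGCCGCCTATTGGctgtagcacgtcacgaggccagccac

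The Mnd1 sequence is chr3:84155787-84156036 on the minus strand and that of Zcwpw1 is chr5:137787081-137787330 on the plus strand. The Zcwpw1 stretch lies before the upstream of 2 RefSeq starts. It lies inside the Mepce gene (137781906 to 137787655), outside annotated exons. A short sequence after this start matched no GENCODE M21 transcript of Zcwpw1, whereas that after the other start did. The stretch before the other start overlaps exons of Zcwpw1 and Mepce, holds none of the 3 motifs and is not shown. The Dmc1 sequence is chr15:79605110-79605359 and the Dazl sequence chr17:50293637-50293870, both on the minus strand. Mnd1 and Zcwpw1 held none of the 3 motifs in these windows, Dmc1 held the E2F core at 2 places, and Dazl held the CTCF core once. The 4 promoters thus have no match in common. Promoters were found for 34 of the 38 genes, 41 stretches in all because some genes have several starts. The E2F core was in 41.5% of the 41, against 16.9% of all 32851 RefSeq promoters, noncoding genes included. The E-box was in 34.1% against 6.0%, and the CTCF core in 3 of the 41 (7.3%) against 2.1%. Both the E2F core and the E-box contain a CpG, and the member promoters were richer in CpG, with a median of 14 against 6 per 250 bases. A match is a description of letters and not evidence of binding.

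Among recombination genes, Mnd1 rose most. MND1 acts with PSMC3IP to let DMC1 search for the homologous chromosome. Mnd1 (ENSMUSG00000033752.7, chromosome 3, 84087933 to 84155786, minus strand) was at 58.7 and 178.86 normalized reads in the controls against 567.81 and 1318.15 in the Ctcf-null libraries (pair 1 first, here and below). Both Ctcf-null libraries were above both controls, and in each genotype the library of pair 2 was the higher. The recovered reads were 66 and 143 against 803 and 1085, so the counts are well above the low levels of most other members. The log2 fold change was 3.06 (SE 0.13, limma adjusted p = 2.3e-12), an 8.36-fold rise, and the pairs gave 3.25 and 2.87. Only 7 of the 22158 tested genes had a larger limma fold change. Its level per exon length passed from above 57.3% and 68.3% of the 16024 tested protein-coding genes in the controls to above 91.9% and 93.3% in the Ctcf-null libraries.

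Psmc3ip, the partner of Mnd1, did not pass. It was at 712.44 and 1919.96 normalized reads in the controls against 640.64 and 1530.76 in the Ctcf-null libraries, with overlapping groups (log2 fold change -0.24, SE 0.09, limma adjusted p = 0.069). Per kilobase of exon, the level of Mnd1 was 17.1% and 19.4% of that of Psmc3ip in the controls against 184% and 179% after Ctcf loss, so that Mnd1 was the lower of the 2 in the controls and the higher in the Ctcf-null libraries. The ratio was alike in the 2 pairs although the level of each gene was higher in pair 2. Psmc3ip overlaps the neighbouring gene Mlx on the opposite strand by 385 bases, and the libraries carry no stated strand information.

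Dmc1, the recombinase that works only in meiosis, rose from a low level. It was at 26.68 and 32.52 normalized reads in the controls against 53.74 and 65.6 in the Ctcf-null libraries, with no overlap (log2 fold change 0.99, SE 0.26, limma adjusted p = 0.013). The pairs were close, at 0.98 and 0.99. The reads were 30, 26, 76 and 54, and DESeq2 with the block did not call it (adjusted p = 0.31).

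ZCWPW1 reads the paired histone marks that PRDM9 leaves at meiotic break sites. Zcwpw1 (ENSMUSG00000037108.13, chromosome 5, 137787798 to 137822621, plus strand) was at 352.22 and 267.67 normalized reads in the controls against 1274.21 and 1061.81 in the Ctcf-null libraries. The groups were far apart and the libraries of each genotype lay close together. The log2 fold change was 1.92 (SE 0.10, limma adjusted p = 3e-11), a 3.78-fold rise, with 1.85 and 1.98 in the pairs. Per exon length, Zcwpw1 was above 55.5% and 41.6% of tested protein-coding genes in the controls and above 80.9% and 68.2% in the Ctcf-null libraries. The gene overlaps Pilra on the opposite strand by 670 bases, and Pilra was counted at 12.45 to 34.02 normalized reads. Without strand, reads in the overlap cannot be assigned to either gene. Prdm9 itself, the methyltransferase that writes those marks, was at 162.77 and 92.56 in the controls against 183.85 and 88.69 after Ctcf loss (log2 fold change 0.06, SE 0.17, limma adjusted p = 0.87). Its values followed the pair and not the genotype.

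**Figure D1:**
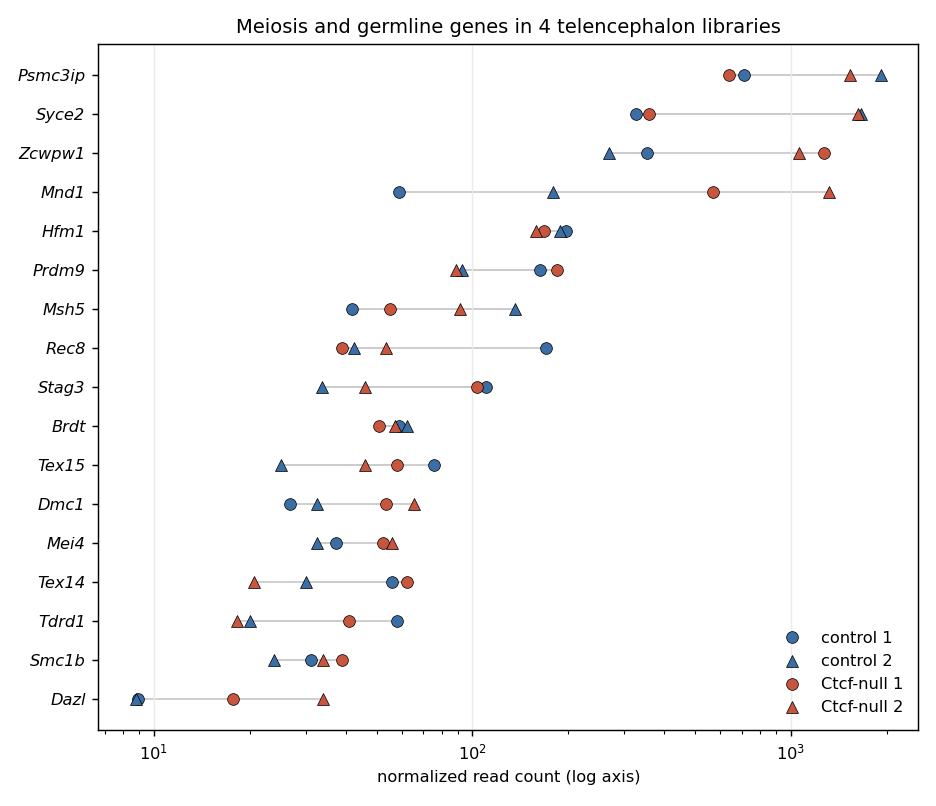
Normalized read count (log axis) of 17 genes in the 4 libraries, for the genes that passed the test or had at least 100 reads in all. Circles are pair 1, triangles pair 2, blue controls and red Ctcf-null libraries. For Mnd1, Zcwpw1, Dmc1 and Dazl, and for Mei4 and Smc1b, which did not pass, both red points lie to the right of both blue ones. For Brdt and Hfm1, which did not pass, both red points lie to the left. Psmc3ip, Syce2 and Msh5 separate by pair with pair 2 higher, and Stag3, Tex14, Tex15, Prdm9 and Tdrd1 with pair 1 higher.

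No other gene of break formation or crossover passed. MEI4, needed for SPO11 to cut, had the lowest adjusted p among them. Mei4 was at 37.36 and 32.52 normalized reads in the controls against 52.33 and 55.88 in the Ctcf-null libraries (log2 fold change 0.62, SE 0.25, limma adjusted p = 0.12), with no overlap of the groups. Hfm1, a helicase of the crossover pathway, was at 196.57 and 188.87 against 167.58 and 157.94 (log2 fold change -0.24, SE 0.14, limma adjusted p = 0.29). Msh5, a mismatch repair relative that stabilizes crossover intermediates, was at 41.8 and 136.34 against 55.15 and 91.12, and its pairs went opposite ways (0.39 and -0.58). Msh4, its dimer partner, had 16 to 36 reads per library and a log2 fold change of 0.54 (SE 0.33). Spo11 itself had 15 to 36 reads and -0.11 (SE 0.33). The single-strand binding gene Meiob and the break factor Mei1 had 6 to 23 and 6 to 33 reads and did not pass. Rnf212, a crossover factor, had 2 reads in each control and 0 in each Ctcf-null library. A count of 0 allows up to 3 reads there, by counting error alone, so no difference was detectable at this depth.

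None of the tested synaptonemal complex and axis genes passed. Syce2, a central element protein, was the only abundant gene of the group, at 327.31 and 1656.04 normalized reads in the controls against 359.21 and 1623.09 after Ctcf loss (log2 fold change 0.05, SE 0.09, limma adjusted p = 0.77). Both libraries of pair 2 were far above both of pair 1. Of the gene, 1829 bases overlap Gcdh on the opposite strand. Sycp1, the transverse filament gene, had 7 to 16 reads per library and Sycp2, an axis gene, 11 to 39. Hormad1, an axis protein that recruits the break machinery, had 21 and 1 reads in the controls against 20 and 13 in the Ctcf-null libraries. Its log2 fold change of 1.26 (SE 0.60, limma adjusted p = 0.18) rests on the single low library, control 2, since pair 1 gave -0.38. Sycp3, Syce1, Syce3, Hormad2, Tex12 and Tex11 were not tested, with at most 14 reads in any library.

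The meiotic cohesin genes gave no common direction. Rec8, the meiotic kleisin that replaces RAD21, was at 170.77 and 42.53 normalized reads in the controls against 38.89 and 53.45 in the Ctcf-null libraries. Control 1 stood apart from the other 3 libraries, which lay close together. The log2 fold change was -0.89 (SE 0.35, limma adjusted p = 0.10), and edgeR called it lower (-1.21, adjusted p = 0.011), but pair 1 gave -2.11 and pair 2 gave 0.32. In the pair without control 1 the sign was thus the opposite. Stag3, the meiotic counterpart of STAG1 and STAG2, was at 110.29 and 33.77 against 103.24 and 46.17 (log2 fold change 0.17, SE 0.22, limma adjusted p = 0.67). Smc1b, the counterpart of SMC1A, was at 31.13 and 23.76 against 38.89 and 34.02 (log2 fold change 0.41, SE 0.29, limma adjusted p = 0.40). Rad21l had 2 to 9 reads and was not tested. Of the 5 mitotic cohesin genes Rad21, Smc1a, Smc3, Stag1 and Stag2, Stag1 rose by 0.65 (SE 0.09, limma adjusted p = 4.4e-05) and the others did not pass in limma, though Stag2 was called higher with upper quartile scaling. Per exon length the meiotic genes were the minor forms in every library, with Smc1b at 0.847% to 1.46% of Smc1a, Stag3 at 6.35% to 10.3% of Stag2 and Rec8 at 3.22% to 13.2% of Rad21. Beside Stag1, Stag3 was at 26.2% and 9.34% in the controls against 17.2% and 7.37% in the Ctcf-null libraries.

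**Figure D2:**
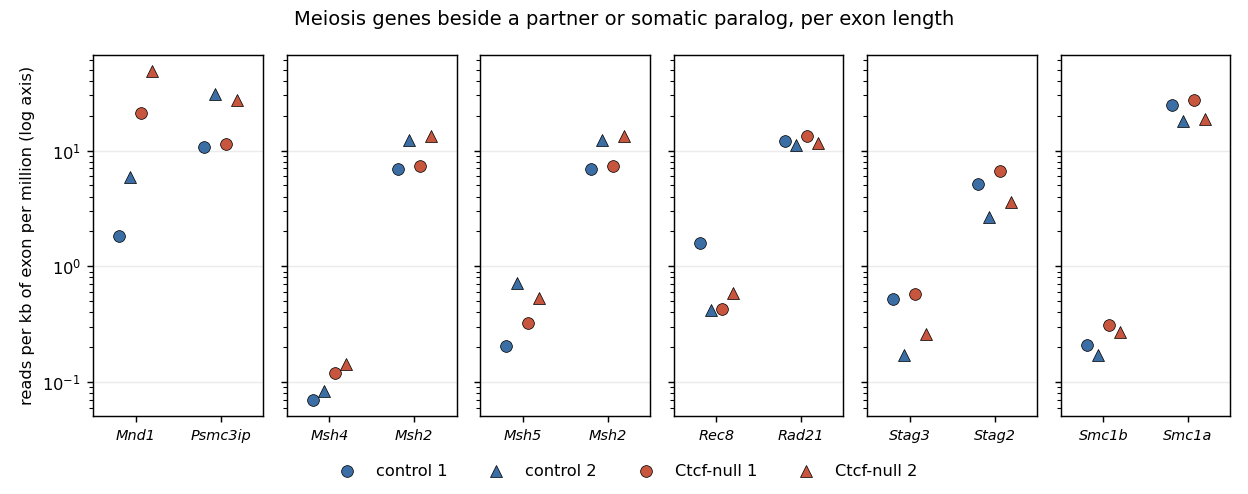
Reads per kilobase of exon, scaled to library depth (RPKM, log axis), of 6 meiosis genes, each beside a partner or somatic paralog. Circles are pair 1, triangles pair 2, blue controls and red Ctcf-null libraries. Mnd1 passes from 17.1% and 19.4% of Psmc3ip in the controls to 184% and 179% after Ctcf loss, while the other 5 genes stay below their counterpart in all 4 libraries.

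Among germ cell genes, Dazl rose at the edge of detection. DAZL is an RNA-binding protein that licenses germ cells for meiosis. Dazl (ENSMUSG00000010592.8, chromosome 17, 50279395 to 50293636, minus strand) was at 8.89 and 8.76 normalized reads in the controls against 17.68 and 34.02 in the Ctcf-null libraries. Those values stand for 10, 7, 25 and 28 reads, and the groups did not overlap. The log2 fold change was 1.38 (SE 0.41, limma adjusted p = 0.028), with 0.92 and 1.84 in the pairs. DESeq2 gave it no adjusted p. Without Dazl, 3 of the 24 other tested genes rose.

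No other germ cell gene of the set passed. Ddx4, a helicase of germ granules, had 30 and 17 reads in the controls against 36 and 11 (log2 fold change -0.35, SE 0.35, limma adjusted p = 0.57). Mael, a piRNA pathway gene, had 0 reads in both controls and 1 in each Ctcf-null library. Tex101, a germ cell surface protein gene, had 4 and 1 reads against 12 and 4. Slc25a31, the germ cell ADP/ATP carrier gene, had 4 and 4 against 7 and 2 reads. Taf7l, a germ cell TFIID subunit gene, had 10 and 5 against 10 and 4, and Stra8, a meiosis inducer, 10 and 5 against 19 and 3. These 5 genes were not tested, and none had more than 19 reads in a library.

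Tdrd1, a Tudor domain gene of the piRNA pathway, was at 57.81 and 20.01 normalized reads in the controls against 41.01 and 18.22 in the Ctcf-null libraries (log2 fold change -0.31, SE 0.29, limma adjusted p = 0.55). Brdt, the testis bromodomain gene, was at 58.7 and 62.54 against 50.91 and 57.1 (log2 fold change -0.17, SE 0.22, limma adjusted p = 0.70). Tex14, needed for bridges between germ cells, was at 56.03 and 30.02 against 62.23 and 20.65 (log2 fold change -0.18, SE 0.28), and Tex15, which acts in transposon silencing, at 75.6 and 25.02 against 57.98 and 46.17 (log2 fold change 0.24, SE 0.28). The pairs of Tex14 and of Tex15 went opposite ways. None of these 4 genes passed.

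**Figure D3:**
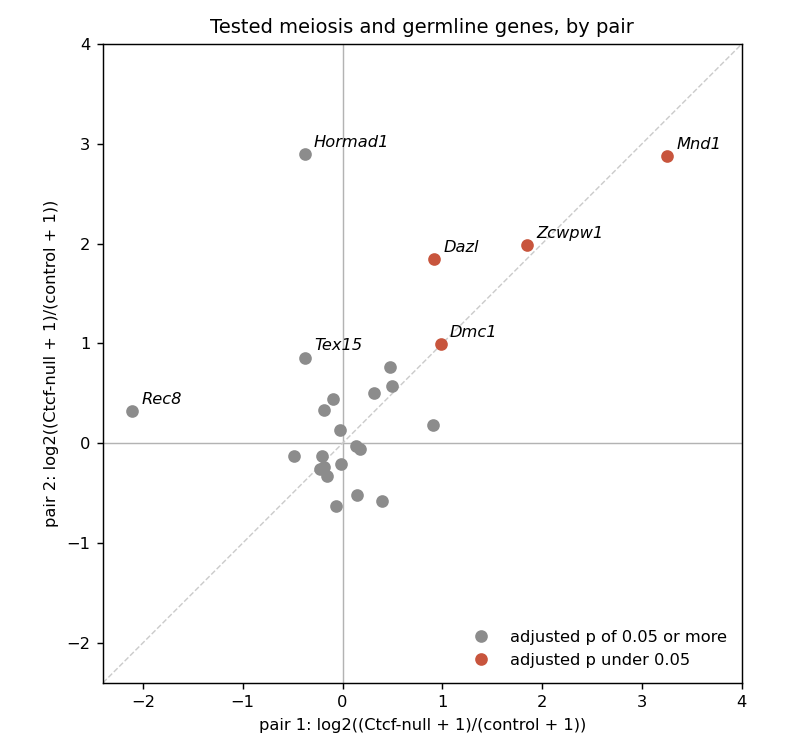
Log2 fold change of the 25 tested genes in pair 1 (x axis) and pair 2 (y axis), with red points for genes past the adjusted p of 0.05 in limma and a dashed line where the pairs are equal. Mnd1, Zcwpw1 and Dmc1 lie near that line, whereas Rec8 (-2.11 and 0.32) and Hormad1 (-0.38 and 2.90) lie far from it.

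Some of the 25 tested genes separated by pair, as did many of all tested genes. In 10 genes both libraries of pair 1 were above both of pair 2 (Sycp1, Stag3, Spo11, Mei1, Tex14, Tex15, Ddx4, Meiob, Prdm9 and Tdrd1), and 37.9% of all tested genes did so. In 3 of the 25 (Psmc3ip, Syce2 and Msh5) both of pair 2 were above both of pair 1, against 43.6% of all, a smaller share. The genotype groups did not overlap in 10 genes, 8 of them higher in Ctcf-null libraries (the 4 that rose, Mei4, Msh4, Sycp2 and Smc1b) and 2 lower (Brdt and Hfm1). Of all tested genes, 6.4% and 7.6% were separated in this way. Summed over all 38 genes, the normalized reads were 2710.09 and 4904.31 in the controls against 4012.14 and 6471.67 after Ctcf loss. Without Mnd1 and Zcwpw1 the sums were 2299.17 and 4457.78 against 2170.12 and 4091.71. On the deposited scaling they were lower in the Ctcf-null library of both pairs. Mnd1 and Zcwpw1 were left out as the largest rises in these same data, and no member with a lower value was left out. The choice itself thus lowers the Ctcf-null sums beside the controls. Such sums weigh abundant genes most, among them Psmc3ip, at 712.44 and 1919.96 in the controls against 640.64 and 1530.76. In pair 1 they also hold Rec8, at 170.77 in control 1 against 38.89. By gene, 15 of the 25 tested had a positive log2 fold change, the 4 that rose included, and 10 a negative one.

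Few genes of the wider meiotic programme passed in the same fit, in which 3.67% of all tested genes rose and 10.1% fell. Of 32 other meiosis genes 25 were tested, of which 1 rose, 0 fell and 24 did not pass, with a median log2 fold change of -0.05. The gene was Fbxo47, a germline F-box gene, at 27.57 and 33.77 normalized reads in the controls against 50.91 and 77.75 after Ctcf loss (log2 fold change 1.02, SE 0.25, limma adjusted p = 0.010). Of 20 piRNA and germ granule genes 16 were tested and 0 passed in limma or edgeR (1 and 2 at an unadjusted p under 0.05, median log2 fold change 0.18 in limma). Of 18 regulators of germ cell transcription 8 were tested, of which 0 passed in limma (1 unadjusted, median 0.28) and 1 in edgeR. That gene was Taf4b, a gonadal TFIID subunit gene, at 24.01 and 31.27 against 48.79 and 44.95 (edgeR adjusted p = 0.046). Ctcfl, the germline paralog of Ctcf, was at 24.01 and 16.26 normalized reads in the controls against 28.28 and 12.15 in the Ctcf-null libraries and did not pass (limma adjusted p = 0.92).

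Several recombination genes that somatic cells use as well fell. Of 30 tested genes 9 fell, 0 rose and 21 did not pass in limma, and 6 fell in edgeR. Of all tested genes 10.1% fell in limma and 7.13% in edgeR. The median log2 fold change of the 30 genes was -0.16 in limma, against -0.07 for all tested genes. Mus81, a nuclease that cuts recombination intermediates, was at 499.87 and 1239.53 normalized reads in the controls against 127.99 and 374.18 in the Ctcf-null libraries (log2 fold change -1.84, SE 0.11, limma adjusted p = 3.7e-10). On the log2 scale Rad51d fell by 0.68 and Nbn, of the complex that senses breaks, by 0.66. Xrcc3, which acts in strand exchange, fell by 0.40 but did not pass in edgeR (adjusted p = 0.063). Of 26 genes known to keep germline genes silent in somatic cells 4 fell and 0 rose in limma and 2 fell in edgeR, whereas with upper quartile scaling 0 fell and 1 was higher. The median was -0.05 in limma, against -0.07 for all tested genes, of which 10.1% fell in limma and 7.13% in edgeR. Tfdp1, the dimer partner of E2F factors, fell by 0.29 and Trim28, a corepressor, by 0.29, while Uhrf1, which maintains DNA methylation, fell by 0.26 and the heterochromatin gene Cbx3 by 0.21. Uhrf1 and Cbx3 did not pass in edgeR.

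No gene beside Mnd1 or Zcwpw1 rose in limma, where 3.67% of all tested genes rose and 10.1% fell. Within 250 kb of Mnd1, 4 other genes were tested and 0 passed in limma or edgeR (1 and 0 at an unadjusted p under 0.05). The nearest coding genes with many reads, Trim2 and D930015E06Rik, had -0.14 and 0.05. Around Zcwpw1, 17 other genes were tested, of which 0 rose and 3 fell. Mepce, whose start lies 0.1 kb from that of Zcwpw1 on the opposite strand, was at 225.92 and 377.74 normalized reads in the controls against 261.63 and 387.55 in the Ctcf-null libraries (log2 fold change 0.12, limma adjusted p = 0.56). Ppp1r35, 8.9 kb away, fell by 0.57 and Nyap1 by 0.40. Pilra, which overlaps the other end of Zcwpw1, had 1.00 (limma adjusted p = 0.053, edgeR adjusted p = 0.030). Reads of Pilra and Zcwpw1 cannot be told apart where they overlap. Around Dmc1, 1 of 18 other tested genes rose, Kdelr3 (0.74, limma adjusted p = 0.0019), and 0 fell. Around Dazl, 1 of 3 fell, Rftn1 (-0.98, limma adjusted p = 5.3e-04).

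**Figure D4:**
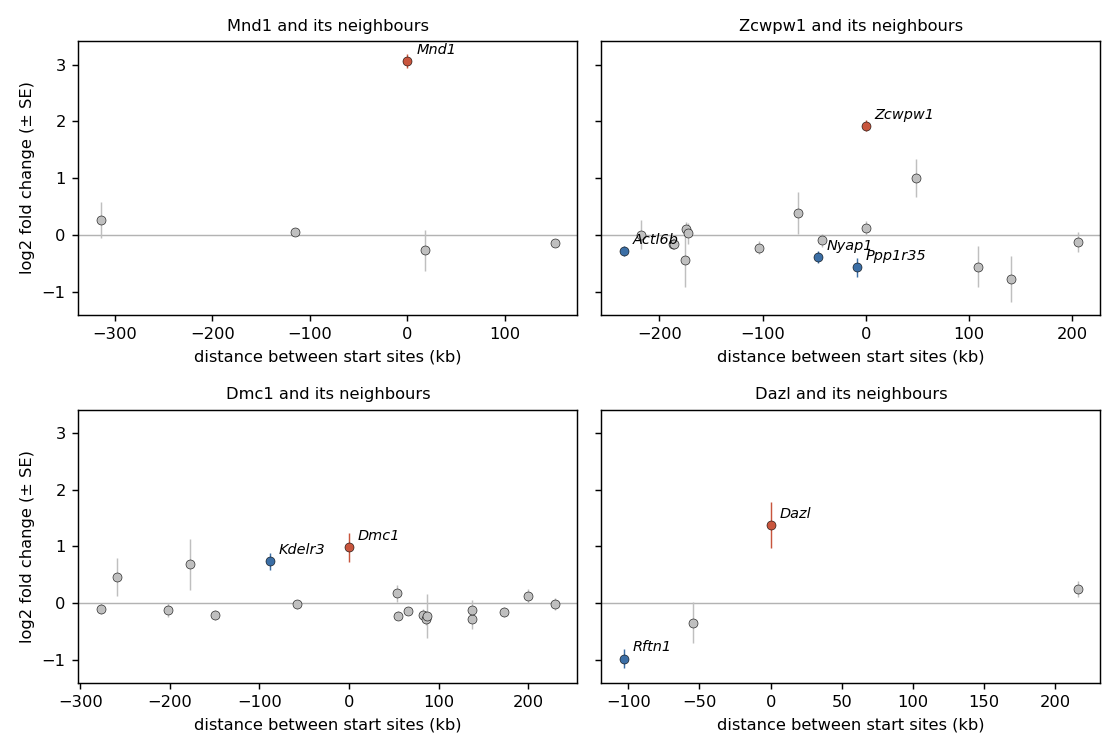
Log2 fold change with its SE (y axis) of the tested genes within 250 kb of the 4 genes that rose, against the distance between start sites in kb along the chromosome (x axis). Red marks the named gene, blue the neighbours past the adjusted p of 0.05 and grey the others. Mnd1 and Zcwpw1 stand at 3.06 and 1.92, and the neighbours of both stay at or below 1.00.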

How the data were processed

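RNA was measured in 4 telencephalon libraries, 2 per genotype, from tissue kept in RNAlater and a Clontech Smart cDNA kit, per the labels' protocols, which name no molecular identifiers and no strand. The submitters' processing notes name STAR 2.5.3, DESeq2 and mm10, with no gene counter or annotation release stated (not given in the sources used here). The authors' deposited signal per gene is a normalized read count per the file headers, not divided by length. The deposited log2 fold changes per pair were not used. In each library at least 99.972% of nonzero values were whole multiples of 1 step within 0.005, which returned the reads.

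The test was limma 3.58.1 (R 4.3.3) with eBayes trend on log2(value + 1), a scale that understates changes of low genes, with pair as a block. The series describes 2 pairs, and deviations of same-numbered libraries correlated at 0.923 across genes. filterByExpr in edgeR 4.0.16 kept 22158 genes. Tests were two-sided with Benjamini-Hochberg adjustment. Libraries of 1 genotype differed by more than counting noise (chi-square over its degrees of freedom 499 and 402), which separate preparations of 1 sample could do as well. edgeR's quasi-likelihood test with TMM factors and DESeq2 1.42.0 were run on the recovered reads as alternatives, where edgeR with the pair block called 2643 genes and limma 3041. With pairs blocked, 1 residual degree of freedom was left, so the errors rest on a spread shared across genes. The fits were tested on simulated data. Exon lengths came from GENCODE M21 (GRCm38), per-length levels use the union of a gene's exons, and list names were matched by symbol or RefSeq synonym (32 genes from 40 names for other meiosis genes, 18 from 18 for regulators). Without strand, reads of overlapping genes cannot be told apart. Values in all libraries were given for genes that passed or had at least 100 reads in total, and from other lists for at most 4 genes that passed. The members and lists were chosen with earlier results of these data known.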

Additional observations from a re-analysis of the deposited data

How the results depend on the processing

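With the pair as a replicate block the 4 rises were called in limma at both other pseudocounts and without a filter, and in edgeR under each scaling. With the strict filter 3 were called, since Dazl was not tested there. Without the replicate block limma called 0 genes higher and 0 lower, and edgeR (a fit chosen after seeing the data) 0 and 0, so 0 of the 25 members passed. Mnd1 was then at 3.06 and 3.05 in the 2 tools, Zcwpw1 at 1.92 and 1.97, Dmc1 at 0.99 and 1.06 and Dazl at 1.38 and 1.56, each with an adjusted p of 1. The counts for other meiosis, recombination, mitotic cohesin and repressor genes were 0 as well. DESeq2 with the replicate block called 289 genes higher and 543 lower, 2 members higher (Mnd1 and Zcwpw1), 0 other meiosis genes, 3 recombination genes and 0 repressors. Dmc1 had 1.04 there (adjusted p = 0.31). Upper quartile scaling in edgeR gave 1358 higher and 1069 lower genes, 2 other meiosis genes, 4 recombination genes, 2 mitotic cohesin genes, 2 piRNA genes, 1 regulator and 1 repressor, and TMM 1 regulator and 2 repressors. Rec8 was the 1 member called lower with TMM, upper quartile and the deposited size factors, and in limma with no filter, where 2 other meiosis genes passed. Of all calls 26.7% were higher in limma, 40.2% with TMM, 56.0% with upper quartile and 26.2% with the deposited size factors, and the median of all genes moved from -0.07 to 0.03. The value of Tex14 turned to 0.016 with TMM, to 0.022 with TMM and no block and to 0.055 with upper quartile.

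Leaving out each library in turn, with no block and the lone library taken to vary like the others, called 0 genes higher and 0 to 2 lower, and 0 members and list genes. Over these fits and the single pairs the log2 fold change ranged from 2.27 to 3.86 for Mnd1, 1.72 to 2.12 for Zcwpw1, 0.85 to 1.13 for Dmc1 and 0.92 to 1.84 for Dazl. Ranges that crossed 0 were -0.95 to 0.48 for Psmc3ip, -2.11 to 0.32 for Rec8, -1.12 to 1.22 for Syce2, -0.67 to 1.01 for Stag3, -0.93 to 0.75 for Msh5, -0.96 to 0.59 for Tex14, -0.54 to 1.02 for Tex15, -0.47 to 0.58 for Prdm9 and -1.05 to 0.44 for Tdrd1. The cause of these shifts was not tested. Genes under 100 reads in all are limited by depth.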
